A study of Mus musculus with 8 samples.

Results

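Immunoglobulin heavy chain isotypes, the J chain and the chaperone Mzb1 were followed in splenic B cells of mice that carry human HGAL. A probe set belonged to this group if the platform table gave it 1 gene symbol and that symbol was Ighm, Igha, Ighg3, Jchain or Mzb1. This gave 8 probe sets for 5 genes, out of 21640 probe sets with 1 symbol and 34760 in all. Ighm had 3 probe sets, Igha 2, and the other genes 1 each. Probe sets of a gene are numbered here by their mean intensity, which does not rank transcripts.

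The cells were sorted from adult spleens as positive for both CD22 and B220, and their total RNA was read on GeneChip Mouse Gene 1.0 ST arrays, each sample on an array of its own. The 4 Control samples came from wild-type littermates. The 4 Sca1-HGAL samples carried HGAL (GCET2), a germinal centre adaptor gene, under the Sca1 (Ly-6E.1) promoter. Both groups share the mixed CBAxC57BL/6J strain background, and the labels describe the allele as transgenic in the design text and as knock-in in the genotype field. That promoter is not specific to B cells, and the labels give neither the number of founder lines, nor pooling, nor age beyond adult. Nor do they name the mouse behind an array, so the p-values rest on a spread between samples that may be partly technical. CBA and C57BL/6J mice carry different alleles of the heavy chain locus, and the labels do not give the haplotype of each sample.

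A B cell first makes IgM, and class switching can later replace its constant region with that of IgG3, another IgG class or IgA. The J chain is a small secreted protein that joins IgM and IgA units into polymers, the form that the polymeric immunoglobulin receptor carries across epithelia. Mzb1, also called pERp1, is a protein of the endoplasmic reticulum that helps immunoglobulin fold and leave the cell, and is abundant in marginal zone B cells, B-1 cells and plasma cells. Plasma cells lower both sorting markers, CD22 and B220, so a sort for both is not directed at them.

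The deposited intensities had array medians from 145.2 to 151.4, and the number of arrays limits the precision. Levels are log2 intensities, and differences are Sca1-HGAL minus Control on the log2 scale with their standard error (SE). The B-cell identity list, 5 genes measured with Cd79a, Cd79b, Ms4a1 and Cd22 among them, had mean levels of 13.14 to 13.19 in Control arrays and 13.12 on each Sca1-HGAL array. Control replicates 2 and 4 alone had high Xist, at 12.17 and 12.18 against 5.28 to 5.65 on the other arrays, with low levels of the Y-linked gene Eif2s3y. These are the levels of female cells, and the other 6 arrays had those of male cells, so the differences of the 5 genes and some of their relations are also given without these arrays. Leaving out Sca1-HGAL replicate 3 raised the number of probe sets past the threshold from 1 to 40, and no probe set of the 5 genes was among them.

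No isotype or secretory gene passed the test, and none separated the 2 groups. In limma over 21640 probe sets, 0 of the 8 had an adjusted p under 0.05, where 0.00462% of all probe sets did. At an unadjusted p under 0.05 there was 1 of 8, a probe set of Igha, against 9.59% of all probe sets. The groups overlapped for all 8, and 5.45% of all probe sets had groups that did not overlap. The difference was below 0 for 5 of 8 probe sets, against 43.9% of all, and the median difference over all probe sets was 0.015.

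**Figure D1:**
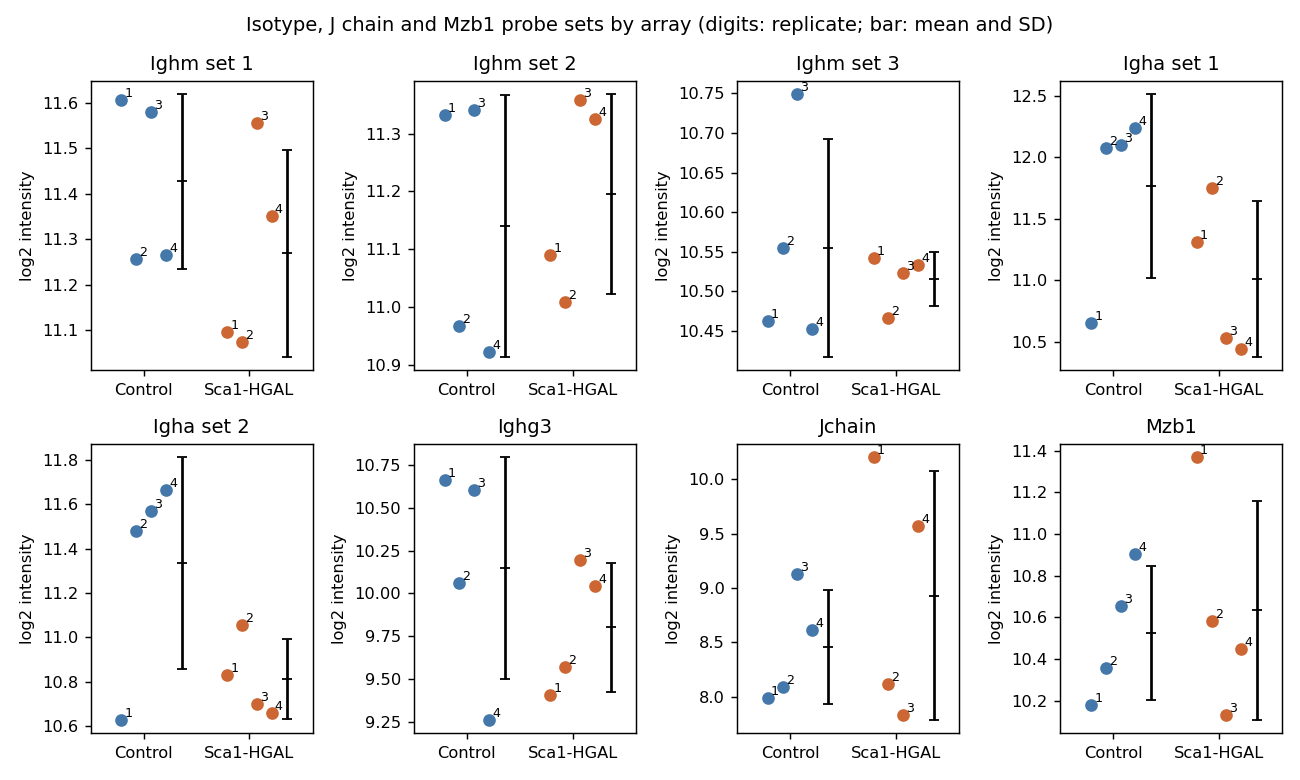
Log2 intensity (vertical axis, each panel with its own scale) of the 8 probe sets on the 4 Control (blue) and 4 Sca1-HGAL (orange) arrays, with replicate numbers, and the mean with its SD as a black bar. The groups overlap in every panel; Control replicate 1 lies apart from its group for Igha, and Sca1-HGAL replicate 1 has the highest Jchain and Mzb1 levels.

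Ighm encodes the heavy chain of IgM, the first isotype a B cell makes. Its first probe set read 11.61, 11.26, 11.58 and 11.26 in Control replicates 1 to 4, and 11.10, 11.07, 11.55 and 11.35 in Sca1-HGAL replicates 1 to 4. Sca1-HGAL replicates 1 and 2 were the lowest, and replicates 3 and 4 lay within the Control range. The difference was -0.16 (SE 0.13, limma adjusted p = 0.74), with a 95% interval from -0.44 to 0.12.

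The second Ighm probe set read 11.33, 10.97, 11.34 and 10.92 in Control arrays, and 11.09, 11.01, 11.36 and 11.32 in Sca1-HGAL arrays. Low and high arrays occurred in both groups, and the difference was 0.055 (SE 0.12, limma adjusted p = 0.93). The third stayed between 10.45 and 10.75 on all 8 arrays, with a difference of -0.038 (SE 0.074, adjusted p = 0.92). Its Sca1-HGAL arrays spanned only 0.076, from 10.47 to 10.54. The first probe set shares 1 of its 6 listed transcripts with the third and none with the second, and the table gives no probe positions. Membrane and secreted forms of the heavy chain, or constant and variable parts of these transcripts, therefore cannot be told apart here. Without the Xist-high arrays the differences were -0.32, -0.14 and -0.089 (adjusted p = 0.62, 0.79 and 0.84).

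Igha encodes the heavy chain of IgA, the main class of mucosal secretions, and gave the largest difference of the 8 probe sets. Its first probe set read 10.65, 12.07, 12.10 and 12.24 in Control replicates 1 to 4. On the Sca1-HGAL arrays it read 11.32, 11.75, 10.53 and 10.44. The upper Control arrays, replicates 2, 3 and 4, lay above every Sca1-HGAL array, but Control replicate 1 lay among the lowest. The Control mean was 11.77 ± 0.75 (SD, n = 4) and the Sca1-HGAL mean 11.01 ± 0.63 (SD, n = 4). The difference was -0.76 (SE 0.38, limma adjusted p = 0.57), with a 95% interval from -1.61 to 0.10.

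The second Igha probe set read 10.63, 11.48, 11.57 and 11.67 in Control and 10.83, 11.06, 10.70 and 10.66 in Sca1-HGAL arrays. Control replicates 2, 3 and 4 again lay above every Sca1-HGAL array, and Control replicate 1 was the lowest of all 8. Its difference was -0.52 (SE 0.20, unadjusted p = 0.028, limma adjusted p = 0.46), and the exact permutation test over the 70 assignments of arrays gave p = 0.143. The platform lists the same 7 transcripts for both Igha probe sets, so they are not independent measures. Constant and variable parts cannot be told apart for Igha or Ighg3 either. Their levels and correlations may therefore not be those of the isotype. The size depends much on Control replicate 1 and on the Xist-high Control replicates 2 and 4. Without Control replicate 1 the differences were -1.13 for the first and -0.76 for the second probe set (limma adjusted p = 0.29 and 0.069). These values keep both Xist-high arrays in Control. Without the Xist-high arrays they were -0.37 and -0.29 (adjusted p = 0.87 and 0.79). One of the upper Control arrays, replicate 3 at 12.10, had low Xist.

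Ighg3 encodes the heavy chain of IgG3, which mice make largely against polysaccharides and without T-cell help. It read 10.66, 10.06, 10.60 and 9.26 in Control arrays, and 9.41, 9.57, 10.20 and 10.04 in Sca1-HGAL arrays. Control replicates 1 and 3 were the highest of all 8 and Control replicate 4 the lowest. The difference was -0.34 (SE 0.30, limma adjusted p = 0.77), with a 95% interval from -1.003 to 0.31. It was -0.64 without Control replicate 4 (adjusted p = 0.43) and -0.17 without Control replicate 1 (0.93). Without both Xist-high arrays it was -0.83 (adjusted p = 0.50).

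A further 4 probe sets name Igha or Ighg3 beside a variable gene segment and are not counted among the 8. Their differences were -0.32, -0.24, -0.37 and 0.090, given with no test. The Ighv3-6 and Igha probe set averaged 9.60 in Control and 9.27 in Sca1-HGAL arrays. The probe set with a difference of 0.090 was at 12.37 on Sca1-HGAL replicate 4, against 10.61 to 11.58 in Control and 10.65 to 11.43 on the other Sca1-HGAL arrays.

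**Figure D2:**
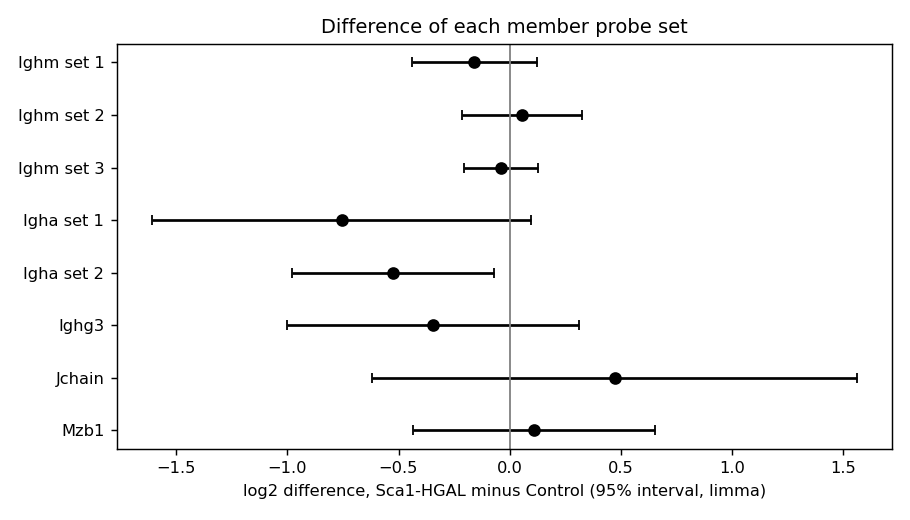
Difference of each of the 8 probe sets (horizontal axis, log2, Sca1-HGAL minus Control) with the 95% interval of the limma fit. The interval includes 0 for all except the second Igha probe set, which runs from -0.98 to -0.069 before adjustment; Jchain has the widest interval, from -0.62 to 1.56.

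Jchain was the most variable of the 5 genes. It read 7.99, 8.09, 9.13 and 8.62 in Control replicates 1 to 4. In Sca1-HGAL replicates 1 to 4 it read 10.20, 8.12, 7.83 and 9.57. The highest and the lowest of all 8 arrays were both Sca1-HGAL, replicates 1 and 3. The Control mean was 8.46 ± 0.52 (SD, n = 4) and the Sca1-HGAL mean 8.93 ± 1.14 (SD, n = 4). The difference was 0.47 (SE 0.49, limma adjusted p = 0.81), with a 95% interval from -0.62 to 1.56, which includes a rise as well as a fall. Without Sca1-HGAL replicate 1 it was 0.049 (adjusted p = 0.98), without replicate 3 it was 0.84 (0.56) and without replicate 4 it was 0.26 (0.94). Without the Xist-high arrays it was 0.37 (0.92), and with array weights 0.52 (0.67).

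Mzb1 read 10.18, 10.36, 10.65 and 10.90 in Control arrays, and 11.37, 10.58, 10.13 and 10.45 in Sca1-HGAL arrays. As for Jchain, Sca1-HGAL replicate 1 was the highest and replicate 3 the lowest of all 8. The difference was 0.11 (SE 0.24, limma adjusted p = 0.93), with a 95% interval from -0.43 to 0.65. It turned to -0.14 without Sca1-HGAL replicate 1 (adjusted p = 0.79) and to -0.00502 without Control replicate 1 (0.997), and was 0.24 without Control replicate 4 (0.83) and 0.28 without Sca1-HGAL replicate 3 (0.73). Without the Xist-high arrays it was 0.22 (0.89), and with array weights 0.0035 (0.997).

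**Figure D3:**
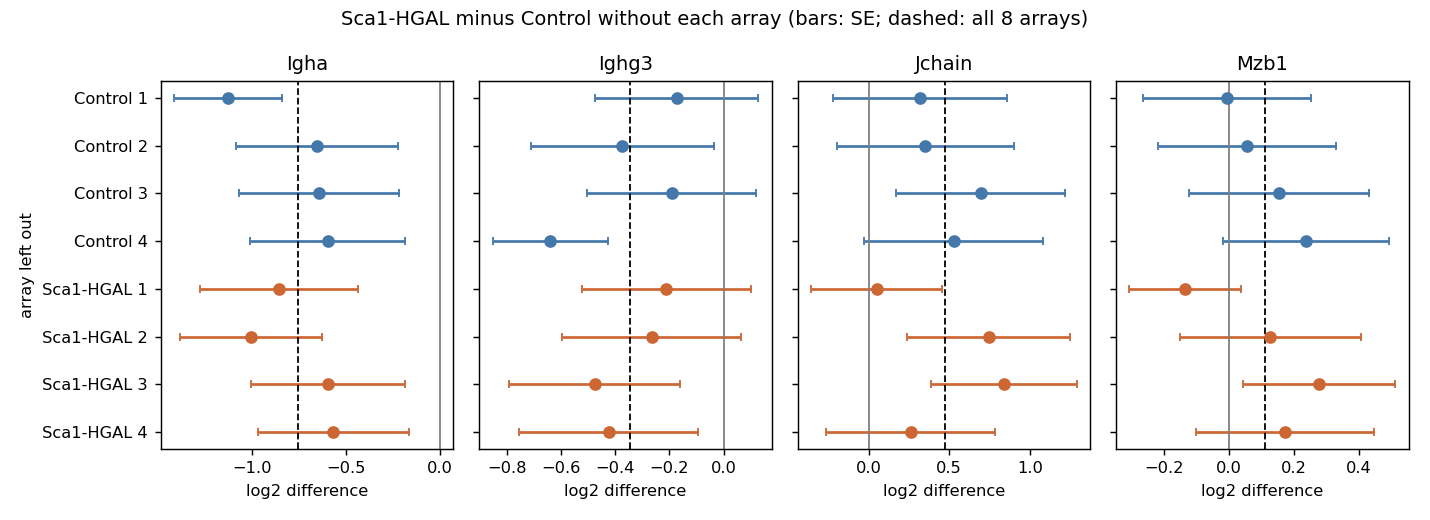
Difference (horizontal axis, log2, Sca1-HGAL minus Control, each panel with its own scale) of Igha probe set 1, Ighg3, Jchain and Mzb1 when each array in turn (vertical axis) is left out, with SE bars, 0 as a grey line and the value over all 8 arrays dashed. Igha runs from -1.13 without Control replicate 1 to -0.57 without Sca1-HGAL replicate 4, Jchain comes to 0.049 and Mzb1 to -0.14 without Sca1-HGAL replicate 1.

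The spread over all 8 arrays, which includes the difference between groups, was large for most of these genes. Within groups it was uneven. Igha probe set 2 had an SD of 0.48 in Control and 0.18 in Sca1-HGAL arrays, and Jchain 0.52 and 1.14. The SD over all 8 arrays was 0.86 for Jchain, larger than that of 99.7% of the probe sets tested. It was 0.76 and 0.44 for the Igha probe sets (larger than 99.5% and 98.0%), 0.52 for Ighg3 (98.7%) and 0.41 for Mzb1 (97.7%). The Ighm probe sets varied less, with SDs of 0.21, 0.19 and 0.095 (larger than 88.4%, 83.8% and 30.4%). RNA of a sorted population does not tell fewer cells of a type from less RNA per cell.

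The promoter of Jchain is shown because it is the regulatory sequence held for the most variable of the genes. It is the RefSeq window of 300 bases on the minus strand at chr5:88527848-88528147 (GRCm38.p6), from 250 bases before the start of the gene to 50 bases after. Capitals mark the E-box letters CANNTG, which helix-loop-helix factors can bind.
Jchain promoter: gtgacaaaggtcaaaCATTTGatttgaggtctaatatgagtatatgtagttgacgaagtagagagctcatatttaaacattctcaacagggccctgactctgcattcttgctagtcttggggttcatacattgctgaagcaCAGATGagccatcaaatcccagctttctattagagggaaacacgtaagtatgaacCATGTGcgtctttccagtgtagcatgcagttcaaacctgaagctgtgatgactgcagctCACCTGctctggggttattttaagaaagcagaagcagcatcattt

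The window holds 4 E-boxes, and the pattern CANNTG is the same on both strands. Of 32851 promoters of this length in the table, 72.3% hold at least 1 and 6.49% hold 4 or more. The ETS core GGAA, searched on both strands, occurs 2 times (at least 1 in 96.0% of promoters), and the octamer ATGCAAAT 0 times (present in 1.74%). The E-boxes and the GGAA matches do not show binding, and the arrays measure no factor at these sites.

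The relation of the secretory genes to the isotypes was computed over the 8 arrays for 7 relations, with Benjamini-Hochberg adjustment over the 7. None passed over the 8 arrays. The strongest was between Jchain and Mzb1 themselves, with Pearson r = 0.77 (exact permutation p = 0.022, adjusted p = 0.156) and Spearman rho = 0.83 (exact permutation p = 0.015, adjusted p = 0.108). With the group means subtracted r was also 0.77, and without the 2 arrays farthest from the Jchain median, both Sca1-HGAL, it was 0.75. Without Sca1-HGAL replicate 1, the highest array for both genes, r was 0.49, and without the Xist-high arrays it was 0.82.

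Jchain and Igha, whose products are joined in polymeric IgA, gave a correlation near 0. Pearson r was -0.014 (exact permutation p = 0.97, adjusted p = 0.97) and Spearman rho 0.12 (exact permutation p = 0.79, adjusted p = 0.79). Sca1-HGAL replicates 1 and 4, the highest for Jchain, had an Igha level of 11.32 and the lowest of all, 10.44. Without them r was 0.69, so the near-zero value rests on these arrays, and with the group means subtracted it was 0.18. Against Ighm, Pearson r was -0.33 (exact permutation p = 0.43, adjusted p = 0.54) and rho -0.33 (exact permutation p = 0.43, adjusted p = 0.50). Against Ighg3, whose product takes no J chain, r was -0.30 (exact permutation p = 0.46, adjusted p = 0.54) and rho -0.52 (exact permutation p = 0.20, adjusted p = 0.34). Without the 2 arrays farthest from the Jchain median the Pearson values were 0.11 and 0.028, while rho was -0.14 and -0.31. Without Sca1-HGAL replicate 1 alone they were 0.023 and 0.010, and without replicate 4 alone both were -0.36, so both negative Pearson values rest on Sca1-HGAL replicate 1.

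The correlation of Mzb1 with the isotypes differed in sign, and none passed the threshold. Against Ighg3, Pearson r was -0.69 (exact permutation p = 0.052, adjusted p = 0.18) and rho -0.69 (exact permutation p = 0.069, adjusted p = 0.24). Against Ighm, r was -0.64 (exact permutation p = 0.087, adjusted p = 0.20) and rho -0.48 (exact permutation p = 0.24, adjusted p = 0.34). Against Igha, r was 0.43 (exact permutation p = 0.30, adjusted p = 0.52) and rho 0.55 (exact permutation p = 0.17, adjusted p = 0.34). Without the 2 arrays farthest from the Mzb1 median, these Pearson values were -0.27, -0.43 and 0.67. Against Ighg3, rho passed without Control replicate 3 (-0.93, exact permutation, adjusted p = 0.043), and r did not. Against Igha, r ran from 0.28 without Sca1-HGAL replicate 3 to 0.74 without Sca1-HGAL replicate 1. With the third Ighm probe set in place of the first, r of Mzb1 with Ighm was 0.092.

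The isotypes were also set against each other, 3 relations added after the values were seen and adjusted over all 10 pairs of the 5 genes. Ighm and Ighg3 gave Pearson r = 0.86 (exact permutation p = 0.0093, adjusted p = 0.093) and rho = 0.79 (exact permutation p = 0.028, adjusted p = 0.14). It was 0.70 without Control replicates 1 and 3, the farthest from the Ighm median, and 0.96 without the Xist-high arrays. Ighm and Igha gave r = -0.37 (exact permutation p = 0.35, adjusted p = 0.51) and rho = -0.21 (exact permutation p = 0.62, adjusted p = 0.69), and -0.58 without the same 2 arrays. With group means subtracted this r was -0.75 (exact within-group permutation p = 0.052). It ran from -0.65 without Control replicate 3 to -0.22 without Control replicate 1, and was -0.28 without the Xist-high arrays. The sign depended on the Ighm probe set. With probe sets 2 and 3 in place of the first, r of Ighm with Igha was -0.71 and 0.27. With Ighg3 it was 0.78 and 0.48. Igha and Ighg3 gave r = -0.35 (exact permutation p = 0.38, adjusted p = 0.51) and rho = -0.29 (exact permutation p = 0.50, adjusted p = 0.63), and -0.34 without Sca1-HGAL replicates 3 and 4. With group means subtracted it was -0.68 (exact within-group permutation p = 0.095). It ran from -0.66 without Control replicate 3 to -0.13 without Control replicate 4, and was -0.14 without the Xist-high arrays.

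**Figure D4:**
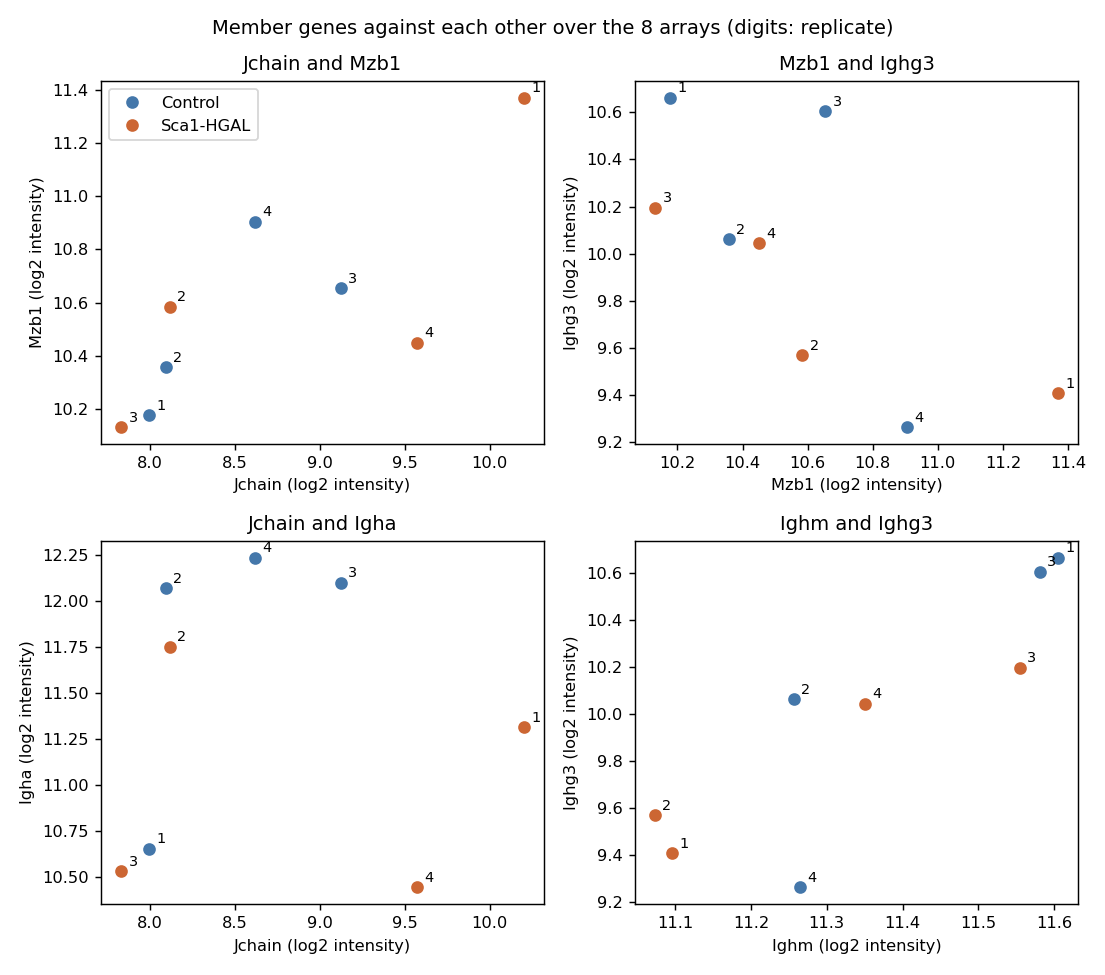
Log2 intensities of 4 pairs of member genes over the 8 arrays, Control in blue and Sca1-HGAL in orange, with replicate numbers. Jchain and Mzb1 have r = 0.77, Ighm and Ighg3 r = 0.86, Mzb1 and Ighg3 r = -0.69, and Jchain and Igha r = -0.014; none passed after adjustment.

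The genes most like each member by Pearson r over the 8 arrays were read from 10451 named genes with a mean of at least log2 7. Choosing the highest of so many gives high values in any case. For Jchain these were Gins2, a DNA replication gene (0.99), Srp68, a subunit of the signal recognition particle (0.97), and the sorting nexin gene Snx18 (0.96). For Mzb1 they were the splicing factor gene Puf60 (0.99), the RNA polymerase subunit gene Polr1d (0.98) and Anapc13, of the anaphase-promoting complex (0.98). For Ighm they were the casein kinase gene Csnk1g3 (0.96), Dnajb9, a co-chaperone of the endoplasmic reticulum (0.95), and the deubiquitinase gene Usp34 (0.95). For Igha they were Mvb12a (0.97), the tetraspanin gene Tspan14 (0.95) and the kinase gene Cilk1 (0.95). For Ighg3 they were Zbtb21 (0.96), Cyb5d1 (0.94) and Fbxo11 (0.94). With group means subtracted the 15 values lay between 0.94 and 0.99, and none of these 15 genes passed limma (adjusted p from 0.66 to 1.00).

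Other immunoglobulin genes measured with 1 symbol were few, 5 of 15 on the list, and none passed. Vpreb3, a partner of the immature receptor, read 10.41 to 10.97 in Control and 10.16 to 10.37 in Sca1-HGAL arrays, with a difference of -0.40 (SE 0.11, limma adjusted p = 0.29) and no overlap. Cd79a and Cd79b, the signalling chains of membrane IgM, had -0.11 and -0.042 (adjusted p = 0.57 and 0.86), with no overlap of groups for Cd79a. Vpreb1 had 0.11 (0.90). Further IgG classes, Ighd, Ighe and the light chain constant genes were not analysed here.

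Receptors and partners of IgM and IgA polymers also did not pass, 0 of 5. Fcamr, a receptor for IgA and IgM, read 6.57, 6.68, 6.58 and 6.85 in Control arrays and 6.38, 6.39, 6.54 and 6.50 in Sca1-HGAL arrays. Every Sca1-HGAL array lay below every Control array, with a difference of -0.22 (SE 0.078, limma adjusted p = 0.41), and -0.12 without the Xist-high arrays. Fcmr, the IgM receptor of B cells, had -0.081 (adjusted p = 0.75), Pigr, the epithelial polymeric receptor, 0.020 (0.97), and Cd5l, a macrophage protein that binds IgM, 0.27 (0.60). Pigr turned below 0 under both other scalings.

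Genes that fold and export antibody in the endoplasmic reticulum lay on both sides of 0. Of 27 measured, 14 had a difference above 0 and 13 below, none passed, and the median was 0.011, beside 0.015 over all genes. Txndc5, a disulfide isomerase, read 9.10, 9.39, 9.36 and 9.39 in Control arrays and 9.99, 10.03, 9.32 and 9.69 in Sca1-HGAL arrays. Sca1-HGAL replicate 3 was within the Control range and the others above it, with a difference of 0.45 (SE 0.15, limma adjusted p = 0.37). Lman1, a cargo receptor from the endoplasmic reticulum to the Golgi, had 0.20 (SE 0.091, adjusted p = 0.52) with no overlap of groups. The co-chaperone gene Dnajc3 had 0.17 (0.55), and Sec61b, of the translocation channel, -0.32 (0.50).

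Plasma cell regulators and surface genes had 6 of 15 differences above 0 and 9 below, with a median of -0.046 and none past the threshold. Zbtb20, a transcription factor of B-1 and plasma cells, read 10.17 to 10.28 in Control and 10.59 to 11.56 in Sca1-HGAL arrays, with a difference of 0.95 (SE 0.19, limma adjusted p = 0.14). Slamf7, a receptor of plasma cells, read 9.86 to 10.24 and 9.16 to 9.83, with -0.64 (SE 0.14, adjusted p = 0.16). Without Sca1-HGAL replicate 3 both passed, Zbtb20 at 1.14 (adjusted p = 0.012) and Slamf7 at -0.76 (0.045). Sdc1, the plasma cell marker CD138, had -0.43 (adjusted p = 0.22) and Glcci1 -0.23 (0.38).

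Prdm1, which encodes the plasma cell regulator Blimp-1 and was named after its values were seen, read 8.84 on Sca1-HGAL replicate 1. On the other arrays it lay between 7.03 and 7.94. Its highest and lowest arrays, Sca1-HGAL replicates 1 and 3, are those of Jchain and Mzb1. Xbp1, which drives the secretory apparatus, lay between 10.36 and 10.71 on all arrays.

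Genes that keep the B-cell state, such as Bach2 and Bcl6, had 6 of 8 differences below 0, a median of -0.090 and none past the threshold. Bach2 had -0.18 (limma adjusted p = 0.68), Bcl6 -0.30 (0.66), Ebf1 -0.12 (0.68) and Ets1 -0.12 (0.61). Of 20 class switching genes measured, 9 lay above 0 and 11 below, with a median of -0.024 and none past the threshold. Tbx21, the T-bet gene that directs switching to IgG2 classes, had 0.99 (SE 0.16, adjusted p = 0.11) and passed without Sca1-HGAL replicate 3 (0.026). Exo1, a nuclease of switch recombination, had -0.30 (adjusted p = 0.24), Batf 0.26 (0.38), and Smad3, a mediator of TGF-beta signals that direct switching to IgA, -0.20 (0.40).

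The mean levels of the T cell and neutrophil lists, but not those of the macrophage, NK and plasmacytoid dendritic cell lists, were highest on the array that was highest for Jchain and Mzb1. Sca1-HGAL replicate 1 had the highest mean level of the endoplasmic reticulum list (9.89, others 9.64 to 9.79), the plasma cell list (9.40, others 9.08 to 9.27), the T cell list (8.09, others 6.94 to 7.77) and the neutrophil list (8.002, others 6.35 to 7.45). Its macrophage and monocyte list was at 8.13 (others 7.73 to 8.29) and its NK cell list at 7.04 (others 6.17 to 7.32). Single markers did not all follow their list. Cd4, Lat and Camp were not highest on that array, while Cd68 (10.23), Lyz2 (8.78), Nkg7 (9.27) and Tcf4 (11.46) were. All 7 T cell genes and 6 of 7 neutrophil genes were above log2 6 in Control arrays. Sca1-HGAL replicate 3, the lowest for Jchain and Mzb1, was also the lowest for the plasma cell (9.08), T cell (6.94), NK cell (6.17) and plasmacytoid dendritic cell (7.95) lists. The part of these cells in the Jchain and Mzb1 levels was not tested. Cd28 is on both the plasma cell and the T cell list. Sca1-HGAL replicate 1 also had the lowest array weight in limma, 0.49 against 0.84 to 1.83 on the other arrays. Over the probe sets tested, it had the lowest correlation with each Control array (r from 0.987 to 0.989). Whether the quality of this array has a part in its high levels was not tested.

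B-1 and marginal zone genes are given beside these levels. All 11 B-1 genes lay above 0 (median 1.04), with scores of 7.82 to 8.03 in Control and 8.18 to 9.70 in Sca1-HGAL arrays, the highest on replicate 1. Ctla4 read 9.83 on Sca1-HGAL replicate 1 and 6.65 to 7.38 on the other arrays, while Spn was highest on Sca1-HGAL replicate 2 (8.72). The part of other cell types in the B-1 scores was not tested. Of 12 marginal zone genes, 10 lay below 0 (median -0.40), with scores of 9.98 to 10.27 in Control and 9.71 to 9.80 in Sca1-HGAL arrays. Over all probe sets, 43.9% of differences lay below 0. Both lists were chosen with earlier results of these data known, so these counts and scores are a description only. No gene of either list passed limma over all probe sets. These 2 subsets are rich in IgM and Mzb1, and their part in the levels of Ighm and Mzb1 was not tested. Plasmacytoid dendritic cells also carry B220. Their list had 6 of 8 differences below 0 (median -0.17), with scores of 8.11 to 8.46 in Control and 7.95 to 8.12 in Sca1-HGAL arrays. None of the 8 passed. Siglech had -0.68 (SE 0.21, limma adjusted p = 0.34) and Bst2 -0.060 (0.83). The 2 above 0 were Tcf4 at 0.22 (0.56) and Klk6 at 0.057 (0.85). Klk6 was matched through a synonym to the listed gene Klk1.

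**Figure D5:**
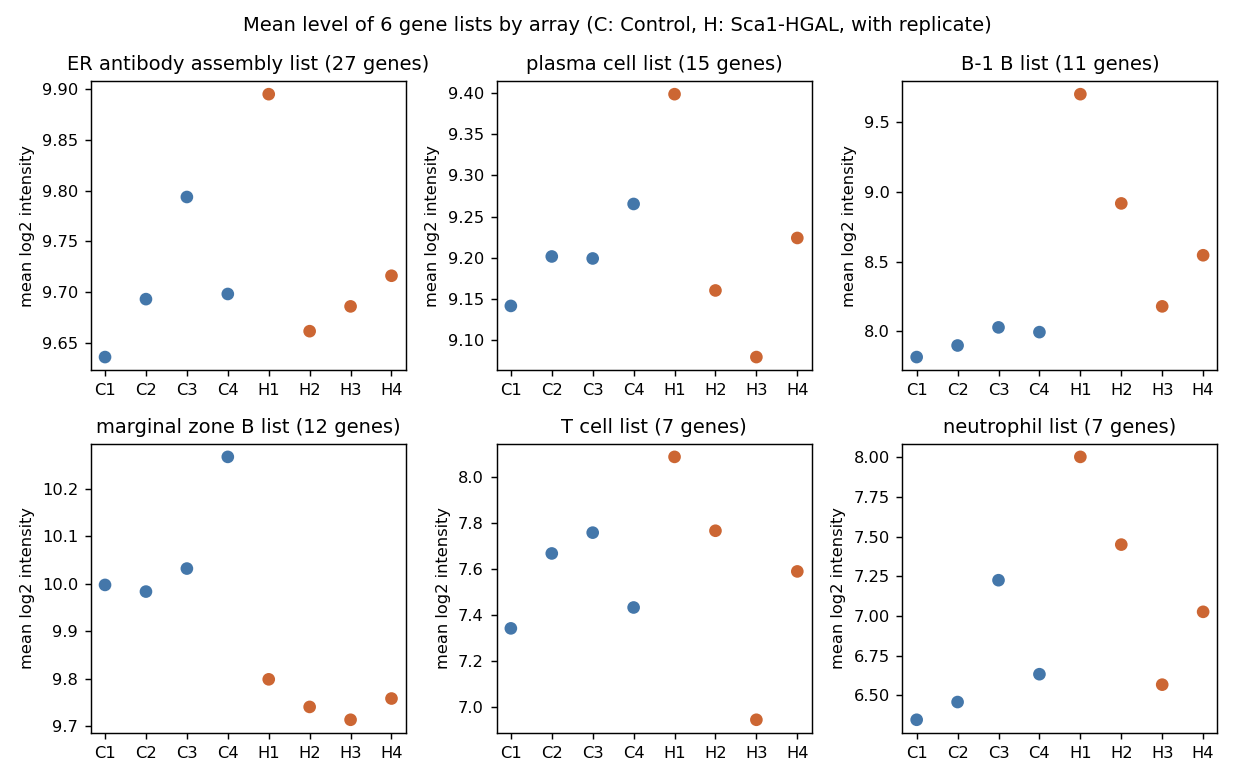
Mean log2 intensity (vertical axis, each panel with its own scale) of 6 gene lists on the Control (C1 to C4, blue) and Sca1-HGAL (H1 to H4, orange) arrays. H1, Sca1-HGAL replicate 1, is the highest for the endoplasmic reticulum, plasma cell, B-1, T cell and neutrophil lists, and all 4 Sca1-HGAL arrays lie below the Control arrays for the marginal zone list.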

How the data were processed

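Sorted splenic B cells of 4 Control and 4 Sca1-HGAL samples were measured on 1 array each, grouped by sample title. The deposited values are linear intensities made by the authors with RMA, per the submitters' processing notes. RMA equalises arrays, which would hide a change common to most genes. Its version is not given in the sources used here, nor are annotation and build. Values ran from 4.94 to 24302, and log2 was taken with no pseudocount or filter.

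The platform table gave 21640 of 34760 probe sets 1 symbol, 1321 several, and did not list 11799. The 2 groups were compared over the 21640 with limma 3.58.1 (R 4.3.3), two-sided and without covariates, at a Benjamini-Hochberg adjusted p under 0.05. On simulated data the fit recovered changes put in, which were all larger than any difference of the isotype and secretory probe sets. It was not tried on changes of their size, and the changed probe sets were drawn at random from all those tested. It therefore does not show that differences of the isotype and secretory probe sets would pass. Correlations used exact two-sided permutation over all pairings of arrays (numpy 2.4.6). A list gene was represented by its probe set with the highest mean. By rule, the text names up to 4 genes per list with the smallest p, besides any past the threshold, and the 3 genes most like each member. Some further list genes, such as Prdm1, Xbp1, Cd68, Nkg7 and Tcf4, were named outside this rule with their values seen. Members, lists and tests were chosen with earlier results of these data known. Alternatives were 2 rescalings, a filter on dim probe sets, array weights, a replicate block, a trended robust prior, all rows, and leaving out arrays.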

Additional observations from a re-analysis of the deposited data

Results flagged for a closer look

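In 152 groups of 4 arrays checked, 13 held an array whose gap to its nearest group mate exceeded the critical share of the group's range, where chance gives about 7.6. Among the isotype and secretory probe sets this was Igha alone, where Control replicate 1 was at 10.65 with its group mates at 12.07 to 12.24. Control replicate 1 was also the lowest for Txndc5 (9.10, others 9.36 to 9.39). Sca1-HGAL replicate 1 was the highest of its group for Lman1 (10.13) and Gzma (6.41). Sca1-HGAL replicate 2 was the highest for Adgre1 (9.36) and Cd22 (12.89), and replicate 4 for Csf1r (7.85). Sca1-HGAL replicate 3 was the lowest for Pacsin1 (8.12) and Lyz2 (7.67). Control replicate 4 was the highest for Pik3r4 (10.65) and the marginal zone list (10.27) and the lowest for the B-cell state list (10.998). Control replicate 2 was the highest for the macrophage and monocyte list (8.18).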

How the results depend on the processing

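No probe set of the 5 genes passed in any of the 15 alternatives, with adjusted p from 0.069 to 1.00. The fit over all rows, planned for the count of probe sets alone, is not among the 15, and no probe set of the 5 genes passed there (adjusted p from 0.56 to 0.94). Of their 120 values, 114 kept their direction. Over the arrays left out in turn, Ighm probe sets 1, 2 and 3 ran from -0.25 to -0.093, -0.017 to 0.12 and -0.072 to 0.026, and Mzb1 from -0.14 to 0.28. Without the Xist-high arrays Ighm probe set 2 was at -0.14.

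The number of probe sets past the threshold, 1, was 3 with median centring, 12 with array weights, 6 with the replicate block and 2 without the Xist-high arrays, and ran from 1 to 40 over the arrays left out. Same-numbered arrays deviated together with r from -0.16 to 0.05, and no Control array matched its own number best. The labels give no pairing, and so few arrays cannot exclude one.

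No Pearson value of the 7 relations passed in any alternative. By Spearman rho, Jchain with Mzb1 passed without Sca1-HGAL replicate 4 (exact permutation, adjusted p = 0.019). Jchain with Mzb1 and Mzb1 with Ighg3 passed without Control replicate 3 (both 0.043). Over the arrays left out, Jchain ran from -0.57 to 0.023 with Ighm, -0.25 to 0.25 with Igha and -0.47 to 0.010 with Ighg3. Mzb1 ran from -0.75 to -0.48 with Ighm, 0.28 to 0.74 with Igha and -0.84 to -0.62 with Ighg3, and Jchain with Mzb1 from 0.49 to 0.91. Without the 2 farthest arrays those of Jchain with Ighm, Igha and Ighg3 were 0.11, 0.69 and 0.028. Jchain with Ighm was 0.041 with Ighm probe set 2 and 0.34 with 3, and Mzb1 with Ighm 0.092 with 3. Jchain with Igha was 0.18 with group means subtracted and 0.17 without the Xist-high arrays.

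Among 54 list genes, 11 of 808 values changed sign. Pigr was at -0.014 after quantile normalisation, -0.018 after median centring and -0.0092 with array weights. Cd79b was at 0.016 after quantile normalisation and Cd22 at -0.0019 after median centring. Over the arrays left out, Pigr ran from -0.031 to 0.080, Vpreb1 from -0.033 to 0.27, Prf1 from -0.016 to 0.22 and Cd22 from -0.029 to 0.064. In 6 values a list gene newly passed, Cd80, Zbtb20, Tbx21 and Slamf7 without Sca1-HGAL replicate 3, Asb2 with array weights and Adgre1 with the replicate block.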
